A study of Mus musculus with 18 samples.

Results

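The genes described here are the 5 members of the TAM signalling system, namely the ligands Gas6 and Pros1 and the receptors Axl, Tyro3 and Mertk. They were chosen by name, with earlier results of these data known, and were followed through all 9 groups of the series. They are 5 of the 52958 gene symbols counted in dermal papilla (DP) libraries and 5 of the 27933 counted in hair follicle stem cell (HFSC) libraries. All 5 passed the filter on low counts in both cell types, in which 23463 DP genes and 15231 HFSC genes were tested.

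TAM receptors are receptor tyrosine kinases named after Tyro3, Axl and Mer, the product of Mertk. Gas6 and protein S, the product of Pros1, are secreted ligands that need vitamin K-dependent carboxylation of their Gla domain. Through that domain they bind phosphatidylserine on membranes while their other end binds the receptor, and Gas6 binds all TAM receptors whereas protein S is known for binding Tyro3 and Mer. The dermal papilla is a cluster of mesenchymal cells below the follicle that signals to the epithelium, and the bulge holds the epithelial stem cells from which the follicle regrows. A ligand made in the papilla can therefore meet a receptor on the stem cells.

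RNA-seq was made from sorted cells of female mice, with 2 libraries per group, 8 from DP and 10 from HFSC. In the surgery experiment, wild type C57BL/6 mice had a sham operation (Sham) or an adrenalectomy (ADX), which removes the main source of the glucocorticoid corticosterone. For HFSC there was a further group of adrenalectomised mice that were fed corticosterone (ADX+CORT). In the deletion experiment, 129/C57BL/6 mice carrying Pdgfra-CreER and floxed alleles of the glucocorticoid receptor gene Nr3c1 (GR fl/fl) formed the GR KO group, and 129/C57BL/6 wild type mice formed the Control group. Both received tamoxifen for 6 days. Pdgfra-CreER acts in Pdgfra-expressing cells, which in skin are mesenchymal, so the HFSC of GR KO mice are not the cells aimed at. Strain and tamoxifen differ together between the experiments, so levels of Sham and Control cannot be told apart by either. The labels give no age and do not say that the 2 libraries of a group came from separate animals, so p-values measure the spread between these libraries, which may be technical.

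DP libraries held between 6194415 and 13941628 counts and HFSC libraries between 14067139 and 33014976, and the 2 libraries of a group correlated at 0.896 to 0.956 in DP and 0.952 to 0.971 in HFSC (Pearson's r of log2 CPM across genes). Levels are given as CPM, edgeR's counts relative to the TMM-scaled library size. In DP, Nr3c1 was at 671 and 978 CPM in Control and at 137 and 111 CPM in GR KO, and it fell by 2.73 on the log2 scale (SE 0.38, adjusted p = 0.0212 by edgeR). In Sham and ADX DP it was at 365 to 671 CPM. In HFSC, Nr3c1 was at 257 and 338 CPM in Control and at 243 and 170.0 CPM in GR KO, at −0.53 on the log2 scale (SE 0.24, adjusted p = 0.367 by edgeR), and at 266 to 421 CPM in the 6 libraries of the surgery experiment. The 13 papilla markers summed to 1221 to 2866 CPM in DP libraries and to 76.8 to 254 CPM in HFSC libraries. The 12 stem cell markers summed to 22175 to 55873 CPM in HFSC libraries and to 380 to 1592 CPM in DP libraries. These sums set DP libraries apart from HFSC libraries, but do not set papilla cells apart from other mesenchymal cells. In DP libraries 7 dermal fibroblast markers summed to 15697 to 75367 CPM, and 9 pericyte and smooth muscle markers to 465 to 9602 CPM. Single papilla markers differed between DP groups in both directions. In ADX against Sham 8 of the 13 were higher and 5 lower, and in GR KO against Control 7 were higher and 6 lower. For example, Notum was at 571 and 818 CPM in Control and at 164 and 63.5 CPM in GR KO. Vcan was at 152 and 260 CPM in Control and at 502 and 480 CPM in GR KO. Their part in the TAM values was not tested.

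The genes lie on 4 mouse chromosomes (GRCm38, GENCODE M21). Gas6 spans chr8:13465374-13494490 on the minus strand, with 15 exons in its 1 annotated transcript, Gas6-201, and 34 of its exon bases are shared with Tmem255b on the other strand. Pros1 spans chr16:62854307-62929346 (plus), Axl chr7:25757273-25788705 (minus), Tyro3 chr2:119797733-119818104 (plus) and Mertk chr2:128698956-128802894 (plus), each without exon bases of another gene. The 250 bases before the RefSeq transcription start (GRCm38.p6) follow for the 3 genes on which the results turn, both ligands and the receptor Axl, since corticosterone is a ligand of the glucocorticoid receptor, a factor that binds DNA. Each runs 5′ to 3′ on the strand of its gene, and capitals mark GC boxes, GGGCGG or its reverse complement.
Gas6 (chr8:13494536-13494785, minus strand): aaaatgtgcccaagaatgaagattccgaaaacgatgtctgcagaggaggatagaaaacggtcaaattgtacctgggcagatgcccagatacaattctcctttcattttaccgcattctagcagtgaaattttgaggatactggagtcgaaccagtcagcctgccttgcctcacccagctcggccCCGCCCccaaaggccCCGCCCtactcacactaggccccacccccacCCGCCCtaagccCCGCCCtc
Pros1 (chr16:62854057-62854306, plus strand): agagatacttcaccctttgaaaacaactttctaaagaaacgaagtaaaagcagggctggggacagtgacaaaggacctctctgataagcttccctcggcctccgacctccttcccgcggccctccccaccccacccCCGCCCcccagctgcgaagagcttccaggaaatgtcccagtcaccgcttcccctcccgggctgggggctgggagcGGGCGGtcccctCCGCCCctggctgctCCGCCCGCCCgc
Axl (chr7:25788734-25788983, minus strand): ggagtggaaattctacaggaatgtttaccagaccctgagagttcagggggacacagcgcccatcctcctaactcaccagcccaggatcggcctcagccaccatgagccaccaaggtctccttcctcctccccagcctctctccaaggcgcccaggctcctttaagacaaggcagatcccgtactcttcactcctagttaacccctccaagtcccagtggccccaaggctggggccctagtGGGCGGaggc

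These promoters held 4 GC boxes in Gas6, 5 in Pros1, of which a pair overlaps, and 1 in Axl, and those of Tyro3 and Mertk held 3 each. Of 32536 mouse promoter windows of this length, 33% had at least 1 such match, 4.12% had at least 4 and 1.95% had at least 5, counted on both strands. None of the 5 windows held the glucocorticoid receptor core site AGAACA on either strand, which 16% of all windows held. The full palindromic receptor element (a pair of such core sites facing each other with 3 bases between), the E-box CACGTG and the AP-1 site TGACTCA were also not matched in these 5 windows, and they occurred in 0.00922%, 6.04% and 4.45% of all windows. The G and C content was 54.8% for Gas6, 64.4% for Pros1, 60% for Axl, 73.2% for Tyro3 and 63.6% for Mertk, against a median of 52.4%. These are matches of letters in a short window and say nothing on binding.

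The first question was how the ligands of the papilla responded to the loss of corticosterone or of its receptor. Gas6 was higher in both, and Pros1 was lower after adrenalectomy but higher after receptor deletion. Gas6 stood at 139 and 158 CPM in Sham DP and at 453 and 633 CPM in ADX DP. Both ADX libraries lay above both Sham libraries, with a mean of 543 ± 127 CPM against 149 ± 13.6 CPM (SD, n = 2). The log2 fold change was 1.87 (SE 0.38), a 3.66-fold difference with an edgeR adjusted p of 0.183, which did not pass the threshold of 0.05. DESeq2, which called 2.21% of genes here, gave 1.93 with an adjusted p of 0.00033, and over 8 edgeR alternatives the adjusted p ran from 5.91e-07 without a filter on low counts to 0.304. In this comparison 0.017% of all genes tested were called by edgeR, and none of the 5 TAM genes was among them. The libraries of both groups did not overlap, with ADX higher, for 23.9% of all genes. ADX libraries were the shallowest of DP, with 6194415 and 7784320 counts against 11425379 and 11329227 in Sham, and Gas6 rested on 3263 and 5402 counts in ADX and on 1595 and 1964 in Sham. The part of depth in this difference was not tested.

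In the deletion experiment Gas6 was at 299 and 356 CPM in Control DP and at 1333 and 607 CPM in GR KO DP. Both GR KO libraries were above both Control libraries, but they differed from each other by 2.2-fold, the widest gap between replicates of Gas6 in any of the 9 groups. The log2 fold change was 1.57 (SE 0.38, adjusted p = 0.0734 by edgeR, DESeq2 adjusted p = 0.00459, where DESeq2 called 8.01% of genes). Leaving out GR KO replicate 1 brought it to 0.90 (adjusted p = 0.39 by edgeR), and leaving out GR KO replicate 2 brought it to 2.04 (adjusted p = 0.0304 by edgeR). That replicate 1 also stood apart in immune markers, which summed to 3508 CPM over 13 genes, against 50.3 CPM in replicate 2 and 462 and 225 CPM in Control. The log2 fold change was above 0 for all 12 immune markers tested, as for 56.4% of all genes, and none was called. This rested on replicate 1. In replicate 2 Lyz2 was at 9.67 CPM against 122 and 62.8 CPM in Control, and Cd74 at 17.2 CPM against 157 and 84.3 CPM. Csf1r, at 9.51 CPM, lay between the Control libraries, at 16.7 and 7.44 CPM. Cd207, the Langerhans cell marker langerin, was at 0 in both Control libraries and at 0.244 and 0.159 CPM in GR KO. The part of immune cells in the Gas6 value was not tested. In bulk samples such as these, fewer cells of a type and less RNA per cell cannot be told apart.

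A test of the difference between both experiments gave −0.30 for Gas6 on the log2 scale (SE 0.52, adjusted p = 0.864 by edgeR), so no difference between its responses was detected, with an error that leaves a wide range. Gas6-201 is the only Gas6 transcript in the annotation, so the transcript counts hold no split of Gas6 into isoforms. Tested among 60240 transcripts, Gas6-201 had a log2 fold change of 1.88 (SE 0.40, adjusted p = 0.264 by edgeR) for ADX against Sham and of 1.46 (SE 0.40, adjusted p = 0.366 by edgeR) for GR KO against Control. In these tests edgeR called 0% and 0.00166% of transcripts, whereas 5223 and 5452 had an unadjusted p under 0.05. The counts of Gas6-201 are those of the gene, so this is the same measurement adjusted over transcripts.

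Pros1, whose product protein S is also a plasma anticoagulant, was at 175 and 253 CPM in Sham DP and at 98.5 and 104 CPM in ADX DP. Both ADX libraries lay below both Sham libraries, as they did for 19.4% of all genes. Its log2 fold change was −1.08 (SE 0.28, adjusted p = 0.242 by edgeR, DESeq2 adjusted p = 0.0741). In the deletion experiment Pros1 was at 212 and 172 CPM in Control and at 457 and 553 CPM in GR KO, and the groups did not overlap.

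Pros1 rose by 1.39 on the log2 scale in GR KO DP (SE 0.28), 2.63-fold, with an edgeR adjusted p of 0.0463. It was the 1 TAM gene of 5 called in that comparison, in which 1.54% of all genes tested were called, 0.767% with a rise, and in which libraries did not overlap, with GR KO higher, for 31.6% of all genes. The call was near the threshold, since the edgeR adjusted p was 0.0787 to 0.538 without any 1 of the 4 libraries, and the log2 fold change stayed between 1.06 and 1.52. Scaling by the median of ratios gave 1.29 with an edgeR adjusted p of 0.0503. The 7 dermal fibroblast markers, such as Pdgfra, Col1a1 and Dcn, summed to 65071 and 75367 CPM in GR KO and to 24605 and 15697 CPM in Control. All 7 were higher in GR KO, as were 56.4% of all genes, and 2 were called. After adrenalectomy, where Pros1 was lower, they summed to 21335 and 20048 CPM against 28160 and 34711 CPM in Sham. All 7 log2 fold changes were below 0 there, whereas 53.5% of all genes were higher, and none was called. The libraries overlapped for Col1a1, at 5060 and 2470 CPM in ADX against 4180 and 4990 CPM in Sham, and for Col1a2 and Dpt. Thus the sums of the fibroblast markers went in the direction of Pros1 in both experiments, and their part in its values was not tested.

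The response of Pros1 differed between the 2 experiments. The difference of the log2 fold changes was 2.47 (SE 0.40), and its edgeR adjusted p of 0.0359 passed the threshold, as did 0.477% of all genes tested, 0.349% with a difference above 0. DESeq2 gave 2.30 with an adjusted p of 0.000104 and called 6.43% of genes. Leaving out 1 of the 8 libraries kept the difference between 2.10 and 2.76, and the call was lost without Sham replicate 2 and without either replicate of ADX or Control, with an edgeR adjusted p of up to 0.204. The other 4 genes gave differences that did not pass, 1.13 for Axl (SE 0.49), 1.71 for Tyro3 (SE 0.91), −0.04 for Mertk (SE 0.54) and the value of Gas6 above.

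**Figure D1:**
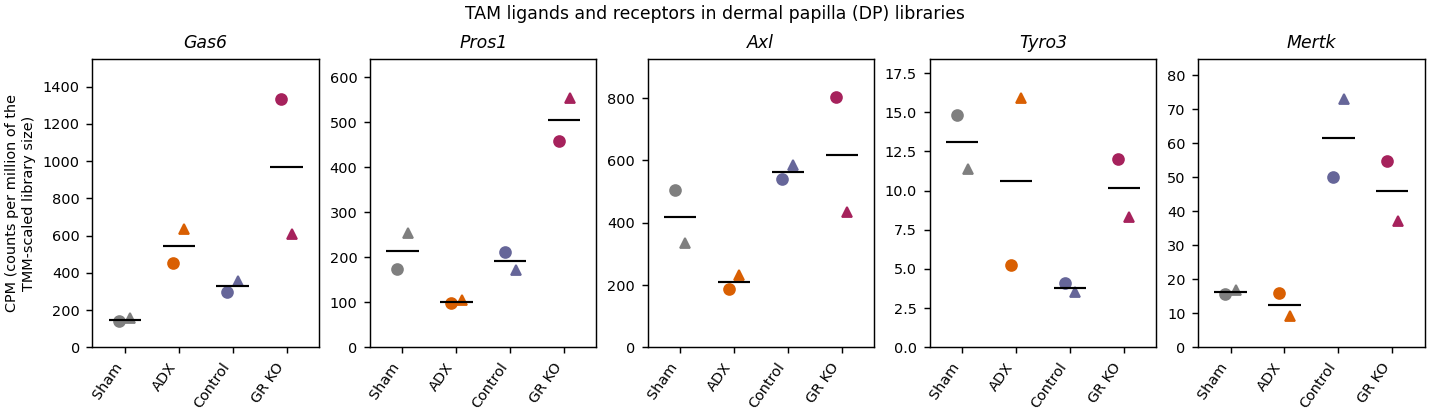
Levels of the 5 genes in the 8 DP libraries, in CPM on a linear axis from 0, by group. Circles are replicate 1, triangles replicate 2 and lines the mean of the group. Gas6 was at 139 and 158 CPM in Sham and at 453 and 633 CPM in ADX, and Pros1 was lowest in ADX and highest in GR KO.

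Levels of different genes were compared as CPM per kilobase, over transcript lengths in DP and over the summed exon length of each gene in HFSC. The latter can exceed the main transcript, as for Tyro3 with 6198 bases against 3989 of Tyro3-201. HFSC levels of such genes come out lower per length. Gas6 made a larger part of the ligand mix of the papilla in ADX than in Sham. Gas6 made up 45.3% and 37.8% of the summed ligand level per length in Sham DP and 85.6% and 87.2% in ADX DP. In Sham, Pros1 was thus the more abundant ligand in both libraries, at 65.8 and 102 CPM per kilobase against 54.5 and 62.1 for Gas6, and in both ADX libraries Gas6 was. In the deletion experiment the share of Gas6 was 59.0% and 69.8% in Control and 74.0% and 52.2% in GR KO, so the groups overlapped. There both ligands were higher in GR KO than in Control.

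The order of Gas6 levels in DP was GR KO, ADX, Control and Sham, with means of 970, 543, 328 and 149 CPM. Only the neighbours GR KO and ADX overlapped in their libraries. For Pros1 the order was GR KO, Sham, Control and ADX, with means of 505, 214, 192 and 101 CPM, and Sham and Control overlapped. Across the 8 DP libraries, log2 CPM of Gas6 correlated at 0.296 with Pros1 and at 0.126 with Axl. The 5 genes of 11683 compared whose levels followed Gas6 most closely over these libraries were Fyco1 at 0.982, Tpx2 at 0.959, Tbc1d8b at 0.951, Adamts14 at 0.933 and Panx1 at 0.929 (Pearson's r). Fyco1 encodes an adaptor of autophagosome transport and Tpx2 a spindle protein. The libraries share groups, depth and marker differences, so these values describe the samples.

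Axl, the receptor with the highest affinity for Gas6, was also the main TAM receptor transcript of the papilla itself. Per length it made up 85.3% to 96.1% of the summed receptor level in the 8 DP libraries (median 92%). Mertk, known for the uptake of dying cells by phagocytes, made up 3.2% to 9.75%, and Tyro3, known best from the nervous system, made up 0.418% to 10.3%.

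Axl was at 505 and 334 CPM in Sham DP and at 189 and 233 CPM in ADX DP, and both ADX libraries were lower. The log2 fold change was −0.99 (SE 0.35, adjusted p = 0.325 by edgeR), which did not pass, whereas without a filter on low counts it was −1.02 with an edgeR adjusted p of 0.0377. In the deletion experiment Axl was at 542 and 586 CPM in Control and at 802 and 435 CPM in GR KO, which spread to both sides of Control. Its log2 fold change there was 0.13 (SE 0.34, adjusted p = 0.926 by edgeR), and it turned to −0.37 without GR KO replicate 1, the library with high immune markers.

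Tyro3 in DP rested on 38 to 170 estimated counts per library. It was at 14.8 and 11.4 CPM in Sham, 5.28 and 15.9 in ADX, 4.10 and 3.53 in Control and 12.0 and 8.32 in GR KO. GR KO was above Control in both libraries, with a log2 fold change of 1.41 (SE 0.65, adjusted p = 0.344 by edgeR), whereas ADX and Sham overlapped. Mertk was at 15.6 and 17.0 CPM in Sham, 15.8 and 9.26 in ADX, 50.0 and 73.1 in Control and 54.9 and 37.2 in GR KO. For Mertk neither treated group was apart from its control, and the log2 fold changes were −0.38 (SE 0.38, adjusted p = 0.725 by edgeR) for ADX and −0.42 (SE 0.37, adjusted p = 0.668 by edgeR) for GR KO. All 4 libraries of the deletion experiment lay above all 4 of the surgery experiment for Mertk, a contrast between strains, treatments and experiments that was not tested. The share of all genes that lay apart in this way was not counted, so the contrast cannot be read as particular to Mertk.

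Transcript estimates showed how the Axl and Mertk counts were made up. Axl-201, which codes for protein, held 98.1% to 99.5% of the Axl counts in Sham and ADX libraries, 87.4% and 92.9% in Control and 71.3% and 81.5% in GR KO. Axl-207, a retained-intron transcript of 455 bases, had 276 to 395 estimated counts in the 4 libraries of the deletion experiment and 0 to 1.24 in the 4 of the surgery experiment. How many other transcripts lay apart between the experiments was not counted. Axl-202, a second coding transcript, had 371 and 150 estimated counts in Control, 1293 and 445 in GR KO and at most 47.6 in the surgery experiment. Short transcripts such as Axl-207 weigh more per length, so levels of Axl per kilobase in the deletion experiment include them. For Axl-201 alone the log2 fold change in GR KO was −0.25 (SE 0.33, adjusted p = 0.966 by edgeR).

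Mertk-202, a processed transcript of 2744 bases without an annotated protein, held 45.0% and 38.3% of the Mertk counts in Control DP and 4.39% and 0% in GR KO DP. In estimated counts it was at 285 and 301 in Control and at 29.7 and 0 in GR KO. The coding Mertk-201 was at 349 and 485 estimated counts in Control and at 646 and 469 in GR KO. For Mertk-202 the log2 fold change was −4.44 (SE 1.69, adjusted p = 0.509 by edgeR over all transcripts), so its own change did not pass. The split of Mertk between its transcripts was not tested. Estimated counts divide shared reads between transcripts, and the files do not give the error of that division. In all 8 DP libraries the coding transcript Pros1-201 held 89.5% to 100% of the Pros1 counts.

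Other genes that act around the ligands and receptors were followed as 8 lists with 75 genes in all, of which 68 were tested in DP. For ADX against Sham in DP, 0 of the 68 were called and 15 (22.1%) were higher, against 53.5% of all genes tested, with a median log2 fold change of −0.35 against 0.08 for all genes tested. For GR KO against Control, 3 rose and 1 fell, so 5.88% were called against 1.54% of all genes tested. Of the 68, 42 (61.8%) were higher, against 56.4% of all genes, and the median was 0.34 against 0.17 for all genes. Of the sheddases, membrane proteases that release the extracellular part of Axl and Mer, Adam10 rose from 44.5 and 53.3 CPM in Control to 150 and 116 CPM in GR KO (log2 fold change 1.44, SE 0.28, adjusted p = 0.0423 by edgeR). Adam17 was at 44.5 and 29.1 CPM in Control and 117 and 95.3 CPM in GR KO, with an edgeR adjusted p of 0.0522. Itgav, the integrin αV subunit that binds phosphatidylserine-bound Mfge8, rose by 1.41 (SE 0.26, adjusted p = 0.0373 by edgeR). Of 30 genes of signalling next to the receptors, the MAP kinase kinase Map2k1 rose by 1.36 (SE 0.25, adjusted p = 0.0376 by edgeR) and the tyrosine kinase Src fell by 1.70 (SE 0.34, adjusted p = 0.046 by edgeR).

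Ggcx encodes the carboxylase that activates Gas6 and protein S. Its level was 62.3 and 63.8 CPM in Sham DP, 29.2 and 16.2 in ADX, 55.2 and 46.0 in Control and 123 and 89.0 in GR KO, so in its direction it went with Pros1 in both experiments. The log2 fold changes were −1.48 (SE 0.34, adjusted p = 0.213 by edgeR) and 1.07 (SE 0.33, adjusted p = 0.154 by edgeR), and their difference of 2.55 (SE 0.48) had an edgeR adjusted p of 0.0558. The other vitamin K genes were not called in DP, among them Nqo1 at −1.39 in GR KO (SE 0.41, adjusted p = 0.135 by edgeR). Of genes for phosphatidylserine exposure, the scramblase Ano6 had a log2 fold change of −0.56 in ADX and of 1.14 in GR KO, and Tmem30a, a subunit of flippases, one of −0.97 in ADX and of 1.08 in GR KO. Neither was called. Lgals3, a galectin that also binds Mer, was at −0.62 in ADX and −1.11 in GR KO, and Socs3, an inhibitor of cytokine signalling, was at −1.36 in ADX (SE 0.35, adjusted p = 0.242 by edgeR).

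Markers of other cell types also differed between DP groups. Pericyte and smooth muscle markers, 9 in number, summed to 465 and 584 CPM in Sham and to 5921 and 1075 CPM in ADX, with 7 of 9 higher and none at 0. They summed to 9602 and 2529 CPM in Control and to 7851 and 3429 CPM in GR KO, with 3 of 9 higher. Epidermal markers, 7 in number, summed to 990 and 3794 CPM in Sham and to 416 and 256 CPM in ADX, and to 523 and 622 CPM in Control and 583 and 54.1 CPM in GR KO. Their part in the values of the TAM genes was not tested.

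The second question was whether the receptors of the stem cells differed under the same treatments. Axl and Tyro3 were lower in HFSC after adrenalectomy and in GR KO mice, and they were higher when corticosterone was given after adrenalectomy. None of these differences passed the edgeR threshold over all genes. Mertk was also lower in GR KO and higher in ADX+CORT than in ADX, but it was not lower in ADX than in Sham, and its difference from Axl and Tyro3 was not tested.

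Axl was at 160.4 and 118 CPM in Sham HFSC, at 68.6 and 101 CPM in ADX HFSC, and at 199.6 and 164 CPM in ADX+CORT HFSC. Both ADX libraries were below both Sham libraries, and both ADX+CORT libraries were above all 4 others. The log2 fold change was −0.72 for ADX against Sham (SE 0.24, adjusted p = 0.188 by edgeR, DESeq2 adjusted p = 0.072), where edgeR called 0.295% of all genes, 45 in number, DESeq2 called 5.49%, and 23.9% of all genes were lower without overlap. For ADX+CORT against ADX it was 1.10 (SE 0.25, adjusted p = 0.06 by edgeR, DESeq2 adjusted p = 0.00141), a 2.15-fold difference. In that comparison edgeR called 0% of genes, although 2941 of 15231 had an unadjusted p under 0.05 and DESeq2 called 9.16%, and 26.7% of all genes were higher without overlap. Without ADX replicate 2, the Axl difference was 1.39 and its edgeR adjusted p was 0.0309. Both comparisons use the same ADX libraries, so they are not independent.

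For ADX+CORT against Sham, Axl had a log2 fold change of 0.39 (SE 0.24, adjusted p = 0.852 by edgeR). Here edgeR called 0% of genes, 927 had an unadjusted p under 0.05, DESeq2 called 58 (0.406%), and 21.5% of all genes were higher without overlap. Axl, Tyro3, Mertk and Gas6 were each higher in ADX+CORT without overlap, Pros1 overlapped, and none was called.

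In the deletion experiment Axl was at 132 and 141 CPM in Control HFSC and at 74.2 and 68.6 CPM in GR KO HFSC. The groups lay apart by more than the spread between their replicates, with means of 136 ± 6.59 and 71.4 ± 3.97 CPM (SD, n = 2). Here the log2 fold change was −0.93 (SE 0.25), a 1.91-fold difference. Its edgeR adjusted p of 0.0963 did not pass and the DESeq2 adjusted p of 0.0109 did, and without any 1 library the log2 fold change stayed between −0.99 and −0.88. In this comparison 0.985% of all genes were called by edgeR, 150 in number, and 4.91% by DESeq2, with no edgeR call among the TAM genes, and 19.1% of all genes were lower without overlap. The difference between the responses of Axl in both experiments was −0.22 (SE 0.34, adjusted p = 0.886 by edgeR). For that difference edgeR called 0% of genes, 1610 had an unadjusted p under 0.05 and DESeq2 called 0.713%.

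Tyro3 was at 31.3 and 35.2 CPM in Sham HFSC, at 15.6 and 18.7 after adrenalectomy, at 46.6 and 39.7 in ADX+CORT, 28.3 and 20.6 in Control and 20.1 and 9.59 in GR KO. Its libraries were ordered as those of Axl, lower in ADX and in GR KO than in the respective control and highest in ADX+CORT, with no overlap in any of these comparisons, although the highest GR KO library nearly met the lowest Control library. The log2 fold changes were −0.95 for ADX against Sham (SE 0.35, adjusted p = 0.217 by edgeR), 1.33 for ADX+CORT against ADX (SE 0.35, adjusted p = 0.0727 by edgeR, DESeq2 adjusted p = 0.0115) and −0.72 for GR KO against Control (SE 0.34, adjusted p = 0.406 by edgeR). Within GR KO its replicates differed by 2.09-fold. Without GR KO replicate 2, the log2 fold change there shrank to −0.28, and without GR KO replicate 1 it grew to −1.35.

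Mertk was at 39.5 and 42.9 CPM in Sham HFSC, at 46.3 and 45.6 after adrenalectomy, at 73.7 and 61.1 in ADX+CORT, 74.2 and 57.0 in Control and 54.7 and 49.3 in GR KO. It was slightly higher in ADX than in Sham, with a log2 fold change of 0.16 (SE 0.23, adjusted p = 0.806 by edgeR), and higher again in ADX+CORT, with 0.71 against Sham (SE 0.23, adjusted p = 0.673 by edgeR) and 0.55 against ADX (SE 0.23, adjusted p = 0.206 by edgeR). GR KO was below Control, at −0.34 (SE 0.23, adjusted p = 0.591 by edgeR). Immune markers summed to 2944 to 3434 CPM in the HFSC libraries of Control and GR KO and to 66.3 to 188 CPM in those of Sham, ADX and ADX+CORT, a gap between the experiments but not between GR KO and Control. Mertk is also a macrophage gene, and the part of immune RNA in its levels was not tested.

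**Figure D2:**
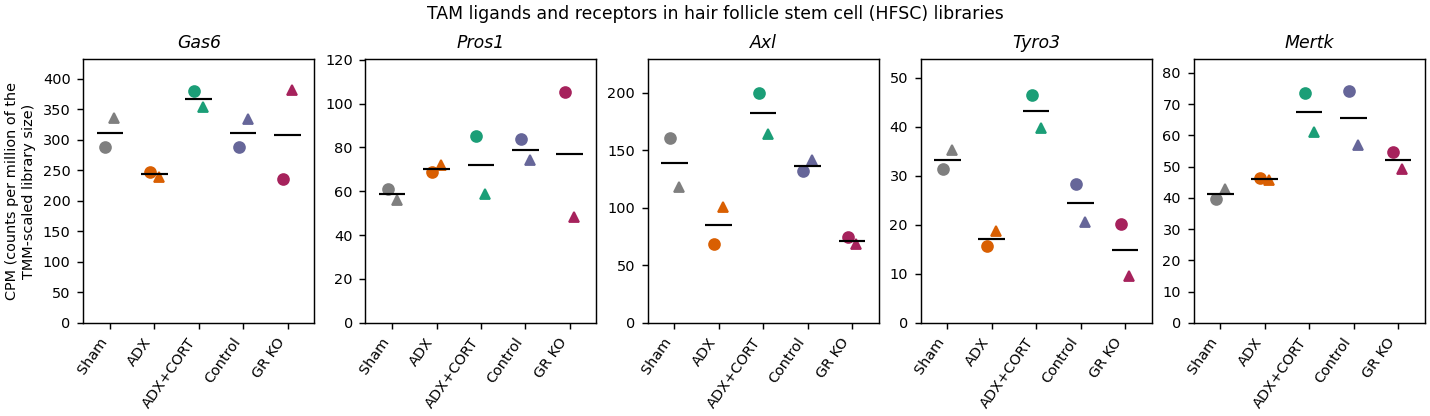
Levels of the 5 genes in the 10 HFSC libraries, in CPM on a linear axis from 0, by group. Circles are replicate 1, triangles replicate 2 and lines the mean of the group. Axl and Tyro3 were lower in ADX than in Sham, highest in ADX+CORT and lower in GR KO than in Control.

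The summed stem cell markers were lower in ADX and in GR KO and higher in ADX+CORT than in ADX, as Axl and Tyro3 were. Unlike Axl and Tyro3, their sums in ADX+CORT were not above those in Sham. Krt15 was the largest part of each sum. The 12 markers summed to 44397 and 49180 CPM in Sham HFSC, 22175 and 33148 after adrenalectomy, 42277 and 44257 in ADX+CORT, 47818 and 55873 in Control and 23780 and 36200 in GR KO. In ADX against Sham 11 of 12 were lower, in ADX+CORT against ADX 10 of 12 were higher, and in GR KO against Control 8 of 12 were lower and 1, Cd34, fell. Cd34, which marks bulge stem cells, was at 767 and 1490 CPM in ADX and at 784 and 663 CPM in GR KO, against 1920 to 2530 CPM in the other 6 libraries. No stem cell marker was at 0 in any group. Epidermal differentiation markers, 7 in number, summed to 2504 and 3966 CPM in Sham. Their sums were 4935 and 5606 CPM after adrenalectomy, and 4889 and 6927 CPM where corticosterone was also given. The sums do not stand for each marker, since adrenalectomy left 4 of the 7 higher than Sham and 3 lower. Lor, for example, fell from 49.3 and 51 CPM in Sham to 14.2 and 21.1 CPM after adrenalectomy. All 7 were higher in ADX+CORT than in Sham, so their sum was not back at the Sham level. None was called in either comparison. The part of cell composition in the Axl and Tyro3 values was not tested.

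Per length, Axl was the most abundant TAM receptor in each of the 10 HFSC libraries, with 48.2% to 69.2% of the summed receptor level (median 59.9%). Mertk held 19.8% to 42.8% and Tyro3 5.83% to 14.6%. The share of Mertk was 19.8% and 25.4% in Sham and 39.8% and 31.4% in ADX, and it was 35.8% and 29.6% in Control and 41.2% and 42.8% in GR KO. It was thus larger where Axl was lower, while the level of Mertk per length in ADX was close to that in Sham, at 10.7 and 10.5 against 9.10 and 9.89 CPM per kilobase. In ADX+CORT the share of Mertk was 26.5% in both libraries. DP and HFSC reads were counted with different tools and scaled by unlike lengths, so their levels were not compared by a test. Within DP the share of Axl was larger and that of Mertk smaller in every library than in any HFSC library.

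**Figure D3:**
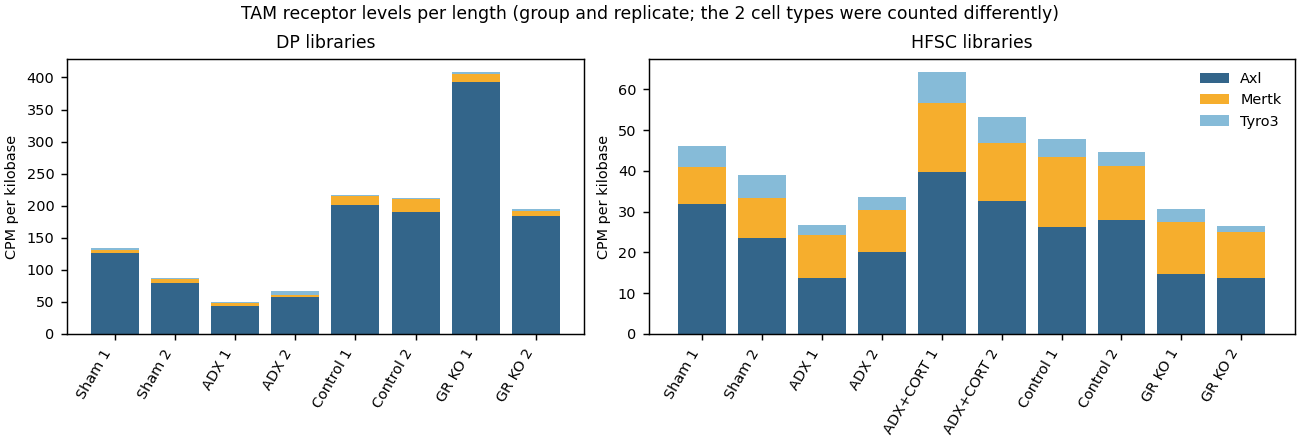
Levels of Axl, Mertk and Tyro3 in CPM per kilobase, stacked, for each DP library on the left and each HFSC library on the right. Axl made up 85.3% to 96.1% of the stack in DP and 48.2% to 69.2% in HFSC.

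The ligands were also found in the stem cells. Gas6 was at 288 and 335 CPM in Sham HFSC, 248 and 239 after adrenalectomy, 380.1 and 355 in ADX+CORT, 289 and 335 in Control and 236 and 382 in GR KO. It was lower in ADX than in Sham without overlap, at −0.35 (SE 0.24, adjusted p = 0.515 by edgeR), and 0.59 higher in ADX+CORT than in ADX (SE 0.24, adjusted p = 0.206 by edgeR). In GR KO the replicates lay on both sides of Control, at −0.01 (SE 0.24, adjusted p = 0.996 by edgeR). Gas6 was thus on the low side of Sham in ADX HFSC and on the high side in ADX DP, but neither passed edgeR, and the difference between the cell types was not tested. The 13 papilla markers summed to 123 and 108 CPM in Sham HFSC, 76.8 and 89.5 in ADX, 107 and 98.9 in ADX+CORT, 250 and 254 in Control and 129 and 183 in GR KO. Wif1 was the largest part of each of these sums, at 43.2 to 227 CPM, so they mostly follow 1 gene. Corin was at most at 0.334 CPM. Between 1 and 3 of the 13 were at 0 in both libraries of a group, Rspo2 in every group but Control. Fibroblast markers summed to 54.9 to 285 CPM in HFSC against 15697 to 75367 CPM in DP. The part of papilla or fibroblast RNA in the Gas6 level of HFSC was not tested.

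Pros1 was at 61.1 and 56.1 CPM in Sham HFSC, 68.8 and 71.8 after adrenalectomy, 85.1 and 58.6 in ADX+CORT, 83.9 and 74.1 in Control and 105 and 48.3 in GR KO. Its log2 fold changes were between −0.04 and 0.29 in the 4 HFSC comparisons, each with an SE of 0.32 and with edgeR adjusted p-values of 0.751 to 0.987. Gas6 was the more abundant ligand per length in each HFSC library, with 77.9% to 92.6% of the ligand sum. In ADX HFSC, where all 5 TAM genes stood apart from Sham, 3 were lower (Gas6, Axl and Tyro3) and Pros1 and Mertk were higher, beside 23.9% of all genes lower and 25.5% higher without overlap.

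**Figure D4:**
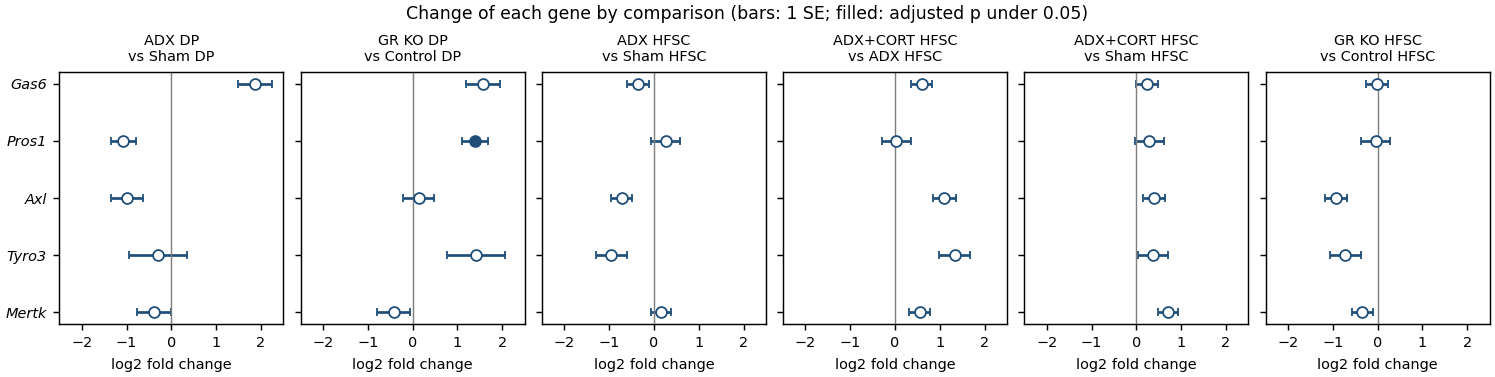
Log2 fold change of each gene in the 6 comparisons, with bars of 1 SE from the edgeR fit and filled points where the adjusted p was under 0.05. Pros1 in GR KO against Control DP was the 1 filled point, at 1.39.

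Of the 75 genes of the 8 lists, 63 were tested in HFSC, and 0 were called in each of the 4 HFSC comparisons, with 9, 11, 3 and 4 at an unadjusted p under 0.05 for ADX against Sham, ADX+CORT against ADX, ADX+CORT against Sham and GR KO against Control. These are 14.3%, 17.5%, 4.76% and 6.35% of the listed genes, against 15.2%, 19.3%, 6.09% and 13.1% of all genes tested. The medians of the listed genes were −0.13, 0.11, 0.09 and −0.12, beside 0.00 to 0.01 for all genes. Itgb5, an integrin subunit that pairs with αV, was at 125 and 102 CPM in Sham, 46.3 and 77.1 after adrenalectomy, and 143 and 131 in ADX+CORT, in the same order as Axl. Its log2 fold changes were −0.88 (SE 0.26, adjusted p = 0.134 by edgeR) for ADX and 1.15 (SE 0.26, adjusted p = 0.0626 by edgeR) for ADX+CORT against ADX. Pik3r2, a regulatory subunit of PI3 kinase, was at 148 and 145 CPM in Control and 79.9 and 78.9 CPM in GR KO, at −0.88 (SE 0.20, adjusted p = 0.0608 by edgeR). Mfge8, a secreted phosphatidylserine-binding protein, was at 253 and 259 CPM in Sham, 76.9 and 231 in ADX, 227 and 224 in Control and 108 and 145 in GR KO, and its edgeR adjusted p-values were 0.387 for ADX and 0.373 for GR KO. Ggcx was at 37.7 and 31.8 CPM in Sham HFSC and 15.5 and 20.6 CPM in ADX HFSC (log2 fold change −0.94, SE 0.34, adjusted p = 0.209 by edgeR).

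Over the 10 HFSC libraries, log2 CPM of Axl correlated at 0.861 with Tyro3, 0.47 with Gas6, 0.402 with Mertk and 0.0591 with Pros1. The 5 of 10570 genes whose levels followed Axl most closely were Timp2 at 0.983, Efna1 at 0.975, Tmem184a at 0.973, Angptl2 at 0.971 and Mxi1 at 0.964 (Pearson's r). Timp2 is an inhibitor of metalloproteases, Efna1 an ephrin ligand and Angptl2 a secreted glycoprotein. These libraries share groups and the marker differences given above.

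**Figure D5:**
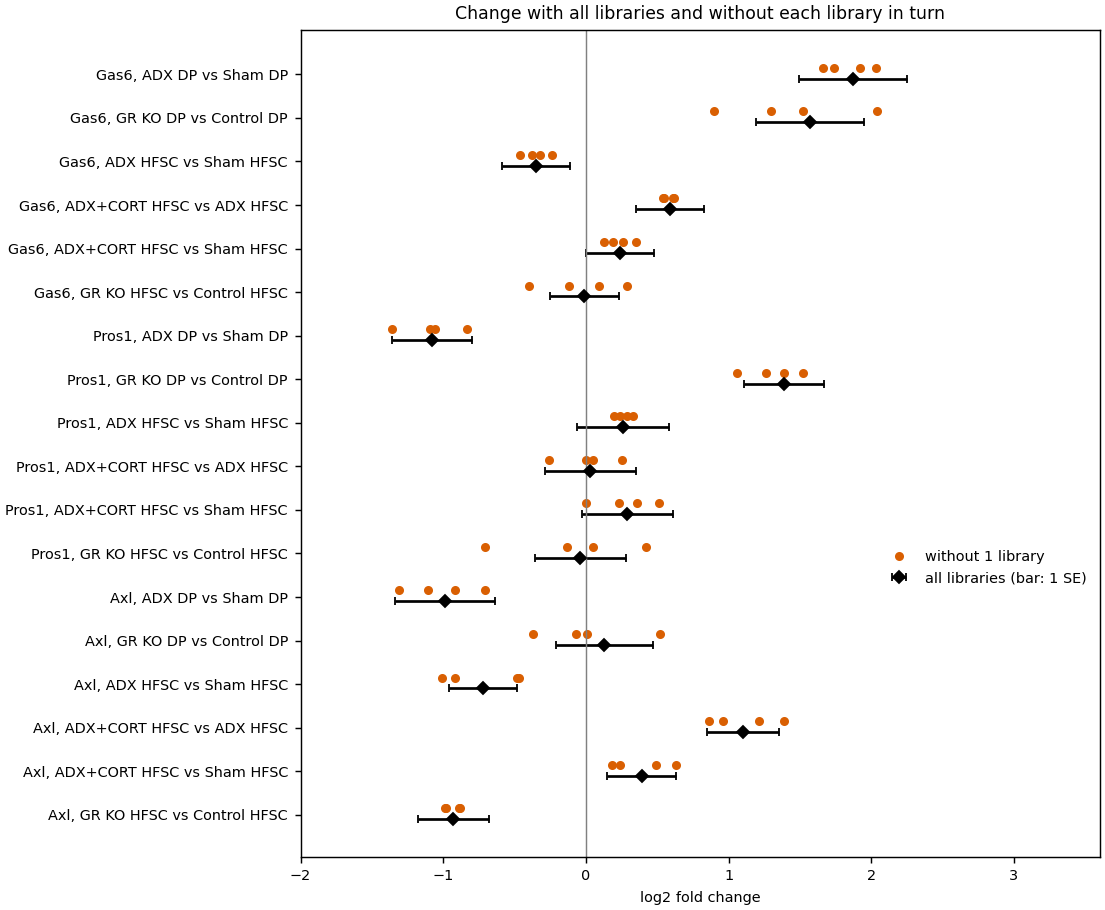
Log2 fold changes of Gas6, Pros1 and Axl in the 6 comparisons with all libraries (diamonds, bars of 1 SE) and without each library in turn (circles). Of these 18 values 5 changed sign without 1 library, namely Axl in GR KO DP, Gas6 in GR KO HFSC, and Pros1 in GR KO HFSC and in ADX+CORT against ADX and against Sham.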

How the data were processed

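RNA-seq of sorted DP and HFSC libraries was analysed in 9 groups of 2. The TAM genes and the lists were chosen with earlier results of these data known. The DP files hold estimated counts of Salmon for each transcript as the authors deposited them, with mm10 named in the submitters' processing notes. They were summed to GENCODE M21 symbols (GRCm38, the assembly of mm10) and rounded. Of 134967 transcripts, 150 were not matched (at most 0.0752% of a library's counts). The HFSC files, as deposited, hold whole-number counts of reads in exons of each gene. Per the file headers, featureCounts 1.6.1 made them with a mapping quality of at least 30 and no strand option. The submitters' processing notes also name Trim Galore 0.4.1, STAR 2.5.3 and DESeq2 1.22.2. Per the labels' protocols, SMART-Seq v4 and Nextera XT were used, which do not mark strand, so reads of Gas6 and Tmem255b over shared exon bases cannot be told apart. In 2 HFSC files 27 gene names had become dates and were restored from the coordinates in their rows.

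DP and HFSC were each fitted with edgeR 4.0.16 (R 4.3.3), using TMM scaling, the default filter, the quasi-likelihood test and Benjamini-Hochberg adjustment over all genes, with a threshold of 0.05. The residual degrees of freedom were 4 in DP and 5 in HFSC, and the biological coefficient of variation was 54% and 38.7%. SEs came from the F statistic, and log2 CPM used a prior count of 2. The steps were tested on simulated counts. Alternatives were DESeq2 1.42.0, no filter on low counts, scaling by the median of ratios, only the groups compared, a replicate block and leaving out each library. A crossed replicate block was added after seeing the data. Levels per length used transcript lengths in DP and summed exon lengths in HFSC. Promoters were taken from RefSeq, in which all 5 genes matched. Named genes were the 5 TAM genes, Nr3c1, listed genes that passed or had the 2 smallest p-values of their list, and the 5 genes most correlated with Gas6 in DP and with Axl in HFSC among those of at least 5 CPM. Single markers, and the transcripts described, were chosen after their values were seen. Without molecular identifiers, PCR copies of a molecule are counted as separate reads.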

Additional observations from a re-analysis of the deposited data

Results flagged for a closer look

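The response of Pros1 in the dermal papilla differed between receptor deletion and adrenalectomy. The difference of both log2 fold changes, GR KO against Control minus ADX against Sham, came to 2.47 (SE 0.40, adjusted p = 0.0359 by edgeR). It is given here because the difference itself passed the test over all 23463 DP genes. The call depended on single libraries, as given above, while the difference stayed between 2.10 and 2.76 without any 1 of them. For the same difference of effects all 7 dermal fibroblast markers were above 0, as were 53.3% of all genes. Their median was 2.26, against 0.11 for all genes, and none was called. Their part in the Pros1 value was not tested. Both ADX libraries were below both Sham libraries, and both GR KO libraries were above both Control libraries. The experiments also differ in strain and tamoxifen, which cannot be told apart from the kind of treatment.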

How the results depend on the processing

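Of 404 alternative values of 42 log2 fold changes, 358 kept their direction and their side of the threshold, 14 newly passed, 11 no longer passed and 21 changed sign. The cause was not tested. With DESeq2, the genes called numbered 453 for ADX against Sham in DP (4 in edgeR), 1376 for GR KO against Control in DP (361), 805 for ADX against Sham in HFSC (45), 1309 for ADX+CORT against ADX (0), 58 for ADX+CORT against Sham (0) and 721 for GR KO against Control in HFSC (150). Without a filter on low counts they were, in the same order, 894, 1456, 888, 1309, 184 and 840. With only the groups compared, calls were 0 and 142 in DP, 93 for ADX against Sham in HFSC and 2 for ADX+CORT against Sham. Without 1 library, calls ranged from 1 to 12 and from 19 to 226 in DP, and in HFSC from 0 to 235, 0 to 549, 0 to 4 and 5 to 336. Each leave-one-out fit has an arm with 1 library, assumed to vary like the other groups. Median-of-ratios scaling moved the median of all DP genes from 0.11 to −0.06 for the difference of effects, with calls of 82 higher and 30 lower becoming 46 and 45, and turned 180 higher and 181 lower in GR KO DP into 134 and 247.

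Gas6 passed in ADX DP with DESeq2 (1.93) and without a filter (1.85), and in GR KO DP with DESeq2 (1.48), without a filter (1.42) and in 1 of the fits without a library (0.90 to 2.04). Pros1 (−1.09) and Axl (−1.02) in ADX DP passed without a filter. The call of Pros1 in GR KO DP was lost with median-of-ratios scaling (1.29), with only the groups compared (1.27) and without any 1 library (1.06 to 1.52). In ADX+CORT against ADX, Axl passed with DESeq2 (1.09), without a filter (1.11) and in 1 of the fits without a library (0.86 to 1.39), and Tyro3 passed with DESeq2 (1.32) and without a filter (1.33). Axl in GR KO HFSC passed with DESeq2 (−0.92) and without a filter (−0.94). Without a filter Axl in GR KO DP turned to −0.02.

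Without 1 library some values that had not passed the test changed sign. In DP these were Mertk (−0.87 to 0.01) and Tyro3 (−1.26 to 0.22) in ADX, Axl in GR KO (−0.37 to 0.52), and the difference of effects of Gas6 (−0.90 to 0.24) and Mertk (−0.59 to 0.46). In HFSC these were Pros1 in ADX+CORT against ADX (−0.26 to 0.25) and against Sham (−0.00012 to 0.51), Gas6 (−0.40 to 0.29) and Pros1 (−0.71 to 0.42) in GR KO, and the difference of effects of Tyro3 (−0.39 to 0.67), Axl (−0.47 to 0.07), Gas6 (−0.05 to 0.65) and Pros1 (−0.97 to 0.15).

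Replicate numbers are not stated to pair libraries, and deviations of same-numbered libraries correlated at −0.148 and 0.22 in DP and at −0.0196 to 0.0411 in HFSC. With a replicate block, 10 genes were called for ADX against Sham in DP, 470 for GR KO in DP, 9 for ADX against Sham in HFSC and 137 for GR KO in HFSC. With the crossed replicate block, chosen after seeing the data, 4 were called for ADX in DP. The replicate block turned Pros1 in ADX+CORT against ADX to −0.01 and changed no call of a TAM gene. Depth was lowest for Tyro3 in DP, at 38 to 170 counts per library.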
